A study of Capra hircus with 6 samples.

Results

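Collagen genes were described in preadipocytes (fat precursor cells) from goat muscle. The members were the rows of the deposited FPKM table whose gene name is COL, a type number, A and a chain number, and 27 of the 27271 genes met this rule. By the class of collagen that they encode, 8 of them were fibrillar, 3 belonged to the basement membrane, 3 were FACIT collagens (fibril-associated collagens with interrupted helices) and 13 belonged to other classes. Counts were taken by the same Ensembl identifiers. The cells were primary preadipocytes from the longissimus dorsi of 3-day-old Jianzhou goats, labelled as under adipose differentiation and sequenced 48 h after transfer to a medium with 50 μmol/L oleic acid. The NC groups (n = 3) carried a negative control siRNA and the genotype label WT. The Si-LIPG groups (n = 3) carried an siRNA against LIPG, which encodes endothelial lipase, and the genotype label LIPG Knock down. The study names its replicates biological and cultured the cells in 6-well plates. How many donor animals were used, and whether libraries of a group came from different animals, is not given in the sources used here, so the p values measure the spread between these libraries.

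Collagens are the main structural proteins of the extracellular matrix, and each molecule is a helix wound from several alpha chains, which may be copies of one chain or products of different genes. Fibrillar collagens such as types I and V assemble into the banded fibrils that carry tension, FACIT collagens sit on the surface of those fibrils, and type IV collagen forms the sheet of the basement membrane. Stromal cells of muscle and fat, preadipocytes among them, are known as producers of type I and type VI collagen, and adipocytes are enclosed by a basement membrane.

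Few of the reads were counted on genes. The files hold 42581107 to 52638817 reads per NC library and 36451898 to 48031507 per Si-LIPG library, of which 524776 to 703680 (NC) and 864882 to 1051230 (Si-LIPG) were counted on genes. That is 0.997% to 1.53% and 1.80% to 2.88% of all reads, and 91.6% to 93.7% fell on no feature. The counts per kb of ND6, the mitochondrial protein gene on the opposite strand from the other 12, were 54.2 to 99.3 times their median in NC and 22.6 to 49.8 times in Si-LIPG. The library protocol keeps the strand, but the strand setting of counting is not given in the sources used here, and whether the counts come from the sense strand of a gene was not tested. Every collagen count, CPM and FPKM below is therefore a level of reads as the files assign them, and the part of this pattern in the differences cannot be told apart from the groups. The LIPG count was at most 2 in any library, so the knockdown could not be checked. Markers of mesenchymal cells were summed as TMM-normalized CPM (reads scaled to a common library size, with edgeR's trimmed-mean factors). The sums were 4468 to 5349 in NC and 5873 to 6031 in Si-LIPG, higher in every Si-LIPG library and led by VIM. VIM alone was at 2497 to 3470 in NC and 4135 to 4587 in Si-LIPG, and the sum without it is not given here. ENG went the other way, at 508 to 1005 in NC and 256 to 424 in Si-LIPG. Of the 9 tested, 6 had a log2 fold change above 0. Their median was 0.11 beside 0.16 for all tested genes, and THY1 (-0.38), CD44 (-0.62) and ENG (-1.07) were below 0 (edgeR). At the criterion below, 2 were higher (LUM and DCN), beside 7.83% of all tested genes. As lower there was 1 (ENG), beside 12.9%. The adjusted p was 0.0395 for LUM, 0.228 for DCN and 0.0844 for ENG (edgeR), beside 6.51% of all tested genes under 0.05. In this list DLK1 was at 0 in all 6 libraries. The part of these markers in the collagen differences was not tested. Myogenic markers summed to 971.5 to 1413, led by ACTC1, and 0 of the 6 tested were at the criterion. Of these 6, 2 had a log2 fold change above 0, and the values ran from -1.1 (TNNT1) to 0.887 (MYOD1). Sums were at most 8.96 for endothelial markers (CDH5, KDR, TEK and CLDN5 at 0), 48.6 for immune markers (PTPRC and TYROBP at 0) and 27.0 for mature adipocyte markers (LPL at 0). Of the pericyte markers only CSPG4 was tested, at 77.8 to 97.3 in NC and 114 to 152 in Si-LIPG. The groups did not overlap, beside 15.2% of all tested genes that were higher without overlap. Its log2 fold change was 0.55 ± 0.33 (SE, edgeR, adjusted p = 0.367). MCAM had 0, 8 and 0 counts in NC and 2, 0 and 0 in Si-LIPG, and RGS5 was at 0.

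Reads assigned to the type I collagen genes made up most of the summed level of the members in both groups. Differences between Si-LIPG and NC depended on how the libraries were scaled. Of the 27 members, 16 had enough counts to be tested, and all 16 were counted in all 6 libraries. After TMM normalization, 0 of the 16 had an adjusted p under 0.05 (edgeR quasi-likelihood test, Benjamini-Hochberg over 6574 tested genes; 6.51% of all tested genes), with 1 at an unadjusted p under 0.05, and DESeq2 and limma also gave 0. The criterion of the study (fold change over 1.5 with an unadjusted p under 0.05) was met by 0 members as higher (7.83% of all tested genes) and by 1 as lower (12.9%), which was COL10A1. In either direction it was met by 20.7% of all tested genes. The share of all tested genes at an unadjusted p alone is not given here. The members with higher values in Si-LIPG under TMM were 12 of 16, but 15 of 16 when library sizes alone or all reads were used for scaling. The median of all tested genes moved as well and was above 0 under each scaling. The share of all tested genes above 0 is not given here.

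The summed FPKM of the 27 members was 4213, 8661 and 8388 from NC 1 to NC 3, against 11787, 11805 and 12044 from Si-LIPG 1 to Si-LIPG 3. FPKM is a count per length and per counted read, so it allows genes to be set side by side. The Si-LIPG libraries lay close together and above every NC library, and NC library 1 stood well below the others. As a share of the reads counted on genes, the members took 1.85%, 3.76% and 3.64% under NC and 5.11%, 5.18% and 5.30% under Si-LIPG. The ratio of the group means was 1.68 in FPKM, 1.17 in TMM-normalized CPM, where the groups overlapped, and 3.00 in CPM over all reads. Without NC library 1 the log2 ratio of the summed FPKM was 0.48 in place of 0.74. In bulk RNA, fewer cells of a type and less RNA per cell cannot be told apart.

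Within that sum the classes kept similar shares. Fibrillar members held 82.7% to 85.9% of the summed collagen FPKM, FACIT members 1.47% to 1.83% and members of other classes 7.65% to 9.54%, with overlap between the groups in each. The basement membrane share was 6.08%, 5.43% and 4.97% from NC 1 to NC 3 and 4.83%, 4.42% and 3.76% from Si-LIPG 1 to Si-LIPG 3, so that every Si-LIPG library lay below every NC library by a narrow margin. COL1A1 and COL1A2 together held 63.0%, 66.7% and 68.2% under NC and 70.3%, 69.1% and 70.2% under Si-LIPG, higher in every Si-LIPG library. These shares do not depend on the scaling of a library, and they carry no test here. Of the collagen counts, which are not divided by length, the same pair took 57.2% to 64.3% with overlap between the groups.

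**Figure D1:**
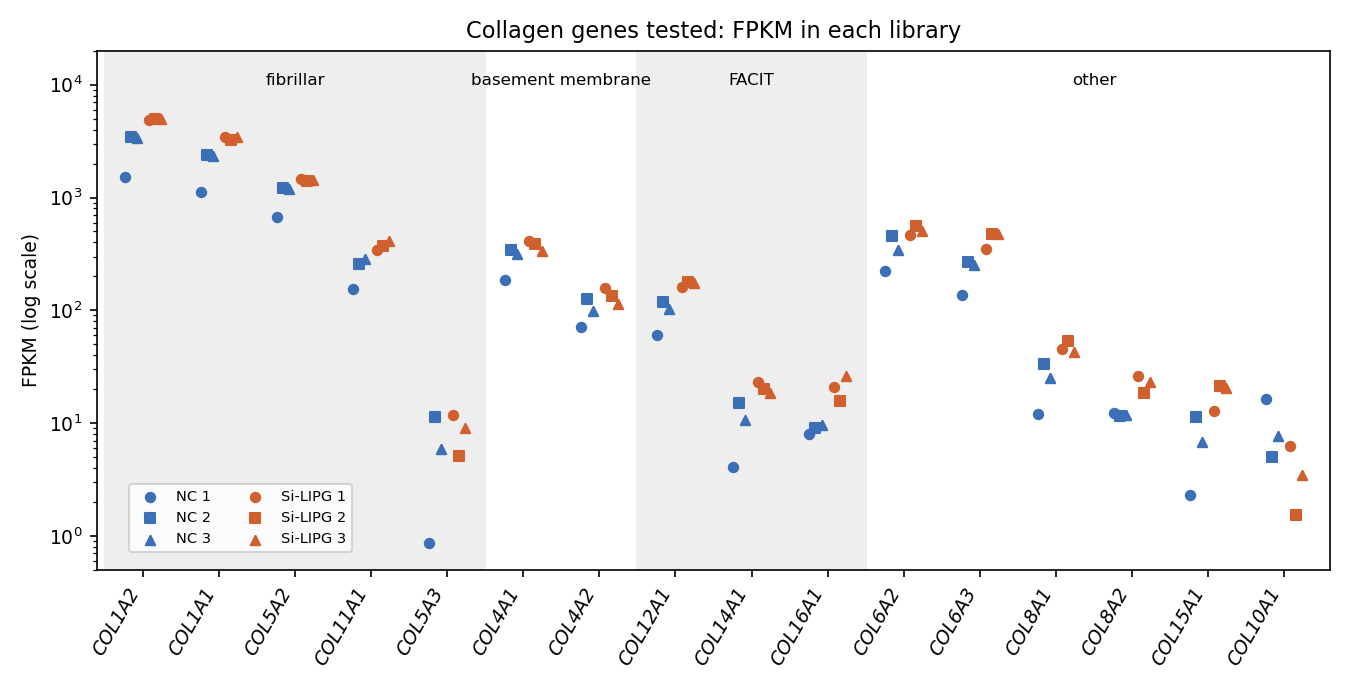
FPKM (log axis) of the 16 tested collagen genes in each of the 6 libraries, ordered by class (shaded bands) and by mean level, with NC in blue, Si-LIPG in orange and the replicate number given by the marker shape. COL1A2 and COL1A1 stand highest, NC library 1 is the lowest library for 14 of the 16 genes, and COL10A1 is the gene for which NC library 1 is the highest.

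COL1A2 (ENSCHIG00000025647) encodes the alpha-2 chain of type I collagen, the main fibril protein of connective tissue. Its FPKM was 1528, 3413 and 3394 from NC 1 to NC 3 and 4871, 4943 and 5009 from Si-LIPG 1 to Si-LIPG 3. It ranked between 13 and 24 among all genes by FPKM in every library but NC library 1, where it ranked 49. In TMM-normalized CPM it was 8806, 12535 and 12746 under NC and 16100, 13401 and 13027 under Si-LIPG. The groups did not overlap on that scale, although the margin was small beside the spread, and the log2 fold change was 0.32 ± 0.37 (SE; edgeR, adjusted p = 0.691).

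COL1A1 (ENSCHIG00000021319), the partner chain alpha-1 of type I collagen, had an FPKM of 1127, 2364 and 2331 under NC and 3416, 3220 and 3445 under Si-LIPG. Its TMM-normalized CPM was 9212, 12310 and 12415 against 16011, 12381 and 12704, so that Si-LIPG library 2 fell among the NC values. The log2 fold change was 0.28 ± 0.36 (SE; edgeR, adjusted p = 0.732). Both type I genes thus had higher FPKM in each Si-LIPG library, with differences after TMM smaller than their standard errors.

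The minor fibrillar chains, which are built into fibrils together with type I collagen and limit fibril width, behaved less uniformly. COL5A2 (ENSCHIG00000012434), alpha-2 of type V collagen, was the third member by level with an FPKM of 671.5, 1211 and 1185 in NC and 1466, 1406 and 1421 in Si-LIPG. Its TMM-normalized CPM was 4374, 5025 and 5030 in NC and 5476, 4307 and 4176 in Si-LIPG, where the highest and the lowest values both belonged to Si-LIPG. The log2 fold change was -0.048 ± 0.33 (SE; edgeR, adjusted p = 0.956) and was positive at 0.51 with library sizes alone and 1.32 with all reads.

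COL11A1 (ENSCHIG00000012424), alpha-1 of type XI collagen, which is best known from cartilage, had an FPKM of 154.7, 257.5 and 287.0 in NC and 345.6, 371.3 and 409.0 in Si-LIPG. After TMM its log2 fold change was 0.14 ± 0.31 (SE; edgeR, adjusted p = 0.857). COL5A3 (ENSCHIG00000025810), alpha-3 of type V collagen, was low, with counts of 2, 30 and 18 in NC and 45, 22 and 42 in Si-LIPG. Its log2 fold change was 0.087 ± 0.63 (SE; edgeR, adjusted p = 0.957), the widest error after that of COL10A1.

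The 2 tested basement membrane genes were the chains of the common type IV molecule. COL4A1 (ENSCHIG00000022125) had an FPKM of 184.4, 343.5 and 318.5 in NC and 412.0, 388.2 and 337.8 in Si-LIPG, and COL4A2 (ENSCHIG00000026168) had 71.8, 126 and 98.7 in NC and 157, 133 and 115 in Si-LIPG. Both overlapped between the groups. In TMM-normalized CPM, COL4A1 was 1514, 1798 and 1705 in NC and 1941, 1500 and 1252 in Si-LIPG, with a log2 fold change of -0.097 ± 0.32 (SE; edgeR, adjusted p = 0.907). COL4A2 was 687.4, 769.1 and 616.2 against 863.2, 600.5 and 496.7, with -0.081 ± 0.32 (SE; edgeR, adjusted p = 0.921). On that scale both were highest in Si-LIPG library 1 and lowest in Si-LIPG library 3. Within NC, the lowest library was NC library 1 for COL4A1 and NC library 3 for COL4A2. Both log2 fold changes were positive with library sizes alone and with all reads. RefSeq's goat assembly ARS1.2 places these genes within 1 kb of each other.

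All 3 FACIT genes were tested. COL12A1 (ENSCHIG00000019062), whose product lies on type I fibrils in dense connective tissue and muscle sheaths, had a TMM-normalized CPM of 946.8, 1178 and 1048 in NC and 1432, 1308 and 1237 in Si-LIPG. The groups did not overlap, and the log2 fold change was 0.32 ± 0.30 (SE; edgeR, adjusted p = 0.612). COL14A1 (ENSCHIG00000022643), which encodes a related fibril-surface collagen, had counts of 12, 51 and 42 in NC and 111, 109 and 109 in Si-LIPG. COL16A1 (ENSCHIG00000023822) had 18, 23 and 29 counts in NC and 76, 66 and 118 in Si-LIPG. For both, counts were higher in every Si-LIPG library, as were the reads counted on genes, and the log2 fold changes of 0.54 ± 0.39 and 0.65 ± 0.39 (SE) after TMM had adjusted p values of 0.480 and 0.383 (edgeR).

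Among the other classes, type VI collagen, which forms beaded filaments around muscle and fat cells, was the most abundant. COL6A2 (ENSCHIG00000018004) had a TMM-normalized CPM of 1222, 1607 and 1226 in NC and 1456, 1450 and 1266 in Si-LIPG, with a log2 fold change of 0.040 ± 0.31 (SE; edgeR, adjusted p = 0.961). COL6A3 (ENSCHIG00000018312), which encodes the longest chain of the molecule, had 2240, 2817 and 2667 in NC and 3273, 3627 and 3525 in Si-LIPG. Here the groups did not overlap, and the log2 fold change was 0.43 ± 0.32 (SE; edgeR, adjusted p = 0.496). The third chain, COL6A1, has no row under that name. A row described as collagen alpha-1(VI) chain (ENSCHIG00000004889) is outside the naming rule. Its counts were 1061, 1912 and 2038 in NC and 2698, 3097 and 3179 in Si-LIPG. The FPKM of this row was 639, 1004 and 915 in NC and 986, 996 and 955 in Si-LIPG, with overlap between the groups. On that scale COL6A2 was 222, 458 and 342 in NC and 461, 560 and 510 in Si-LIPG. COL6A3 was 137, 270 and 250 in NC and 348, 471 and 477 in Si-LIPG. Both were higher without overlap, beside 30.2% of all tested genes. The TMM-normalized CPM of the described row is not given here.

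COL15A1 (ENSCHIG00000026298), a collagen with proteoglycan side chains found next to basement membranes, had the largest positive difference among the tested members. Its counts were 6, 34 and 24 in NC and 55, 105 and 108 in Si-LIPG, and its TMM-normalized CPM was 19.4, 61.2 and 37.8 in NC and 62.1, 85.5 and 78.9 in Si-LIPG. NC library 2 lay just under Si-LIPG library 1, so the gap between the groups was smaller than the spread within either. The log2 fold change was 0.89 ± 0.43 (SE; edgeR, unadjusted p = 0.0579, adjusted p = 0.260).

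The type VIII genes encode short network-forming chains. COL8A1 (ENSCHIG00000016493) had counts of 48, 153 and 135 in NC and 300, 400 and 339 in Si-LIPG, and COL8A2 (ENSCHIG00000023849) had 15, 16 and 19 in NC and 52, 42 and 56 in Si-LIPG. After TMM the groups overlapped for both, with log2 fold changes of 0.49 ± 0.32 and 0.34 ± 0.46 (SE; edgeR, adjusted p = 0.423 and 0.740).

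COL10A1 (ENSCHIG00000008425) stood apart from the other 15 tested members. It encodes type X collagen, a network-forming collagen best known from hypertrophic cartilage. Its counts were 40, 14 and 25 in NC and 25, 7 and 17 in Si-LIPG, although more reads were counted on genes in every Si-LIPG library. Its TMM-normalized CPM was 130, 25.2 and 39.4 in NC and 28.2, 5.70 and 12.4 in Si-LIPG, so that the highest Si-LIPG library lay above the lowest NC library and the groups overlapped. The log2 fold change was -2.04 ± 0.69 (SE; edgeR, unadjusted p = 0.00965, adjusted p = 0.0899). The size of the value rested on NC library 1, without which the log2 fold change was -1.11 and the unadjusted p 0.130 (edgeR). With any 1 library left out it ran from -2.77 to -1.11. The adjusted p was 0.0241 without Si-LIPG library 1 and 0.0672 to 0.455 in the rest of these fits (edgeR). It was 0.0286 with no filter and 0.00801 with a replicate block (edgeR). With library sizes alone the log2 fold change was -1.34 (unadjusted p = 0.0556), and with all reads -0.47 (unadjusted p = 0.522). Relative to the median of all tested genes, however, it was -2.20, -2.08 and -2.05 under these 3 scalings. In the same RefSeq annotation, NT5DC1 overlaps COL10A1, and its counts here were 3, 1 and 0 in NC and 2, 2 and 0 in Si-LIPG. How reads on both genes were assigned is not given in the sources used here.

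The remaining 11 members were too low to be tested. COL13A1, COL26A1, COL6A5 and COL28A1 were at 0 in all 6 libraries, where a count of 0 allows up to 3 counts, or 2.85 to 5.72 CPM of the counted reads. For COL6A5 this holds for the row of that name only. A row described as collagen alpha-5(VI) chain (ENSCHIG00000025243), outside the naming rule, had 34, 60 and 42 counts in NC and 64, 48 and 34 in Si-LIPG. COL6A6, a type VI chain, had 0, 6 and 9 counts in NC and 4, 0 and 2 in Si-LIPG, and COL11A2, alpha-2 of type XI collagen, had 0, 0 and 2 in NC and 6, 0 and 3 in Si-LIPG. COL17A1, COL4A4, COL24A1, COL2A1 and COL25A1 had between 1 and 5 counts in all libraries together. At these counts no difference was detectable for any of the 11, and the intervals given by such floors cover counting error only.

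The median of the tested collagen genes lay near that of all tested genes under each of the 3 scalings. The median log2 fold change of the 16 was 0.30 under TMM, 0.83 with library sizes alone and 1.63 with all reads, and the medians of all 6574 tested genes were 0.16, 0.74 and 1.58. The 15 members other than COL10A1 each lay within 1 log2 unit of the median of all genes in all 3 scalings. Their distance from it ran from -0.26 to 0.73 under TMM, from -0.29 to 0.69 with library sizes alone and from -0.34 to 0.69 with all reads. Leaving out 1 library at a time under TMM gave medians of the 16 between 0.075 and 0.37, and without Si-LIPG library 1 the median of the 16 (0.075) was below that of all genes (0.14). With at least 10 counts required in every sample, which leaves 13 of the members and not COL10A1, the median was 0.57 beside 0.14 for all genes so kept.

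Counts of members past the criterion also changed with the scaling. With library sizes alone, 9 of the 16 were higher at the criterion beside 24.2% of all tested genes, with 0 at an adjusted p under 0.05 beside 1.87% (edgeR). At an unadjusted p under 0.05 there were 9, and the share of all tested genes at that threshold is not given here. With all reads, 14 of the 16 were higher beside 46.1%, and 11 had an adjusted p under 0.05 beside 11.4% (edgeR; the lowest adjusted p was 0.0462). The count of 11 was 12 without NC library 1, 13 without Si-LIPG library 1 and 0 without any other library. The count of 9 under library sizes alone ranged from 4 (without Si-LIPG library 2) and 5 (without NC library 1) to 9 when 1 library was left out. In TMM-normalized CPM the groups did not overlap for 4 of the 16, all higher in Si-LIPG (COL1A2, COL12A1, COL6A3 and COL15A1), beside 15.2% of all tested genes. In FPKM 12 of the 16 were higher without overlap beside 30.2%. The TMM factors, like the share of reads on genes, were lower in every NC library (0.601 to 0.949) than in every Si-LIPG library (1.06 to 1.37), so these library properties cannot be told apart from the groups. Across all tested genes the log2 fold change had a Spearman rho of 0.12 with gene length, given as a description, and the median length was 4815 bases in the tested collagen genes and 2305 in all tested genes. The part of length was not tested.

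**Figure D2:**
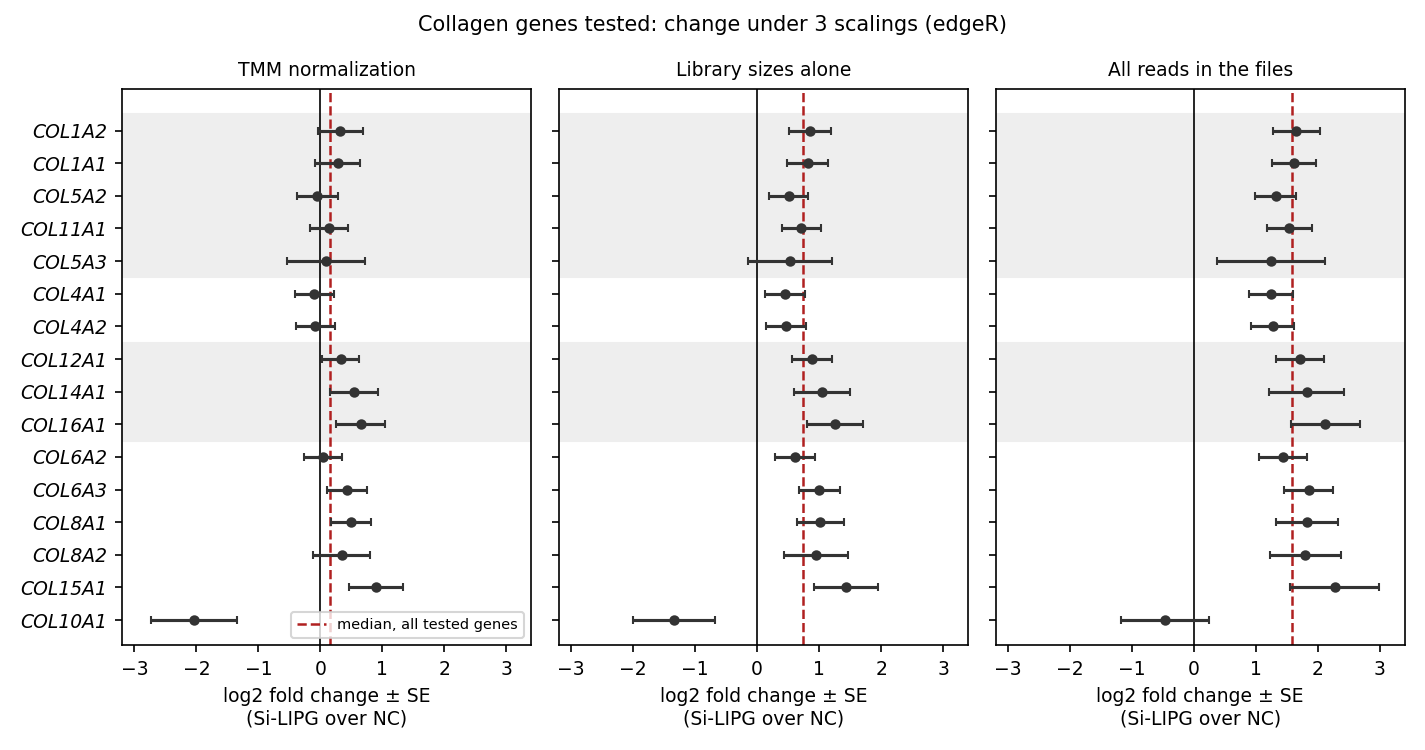
Log2 fold change from NC to Si-LIPG for the 16 tested collagen genes with its SE (bars, edgeR, 3 libraries per group), under TMM normalization, library sizes alone and all reads in the files. The dashed line is the median of all 6574 tested genes (0.16, 0.74 and 1.58). The members move with that line from panel to panel, and COL10A1 stays below it.

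Ratios of partner chains within a library do not depend on the scaling of that library. The FPKM ratio of COL1A1 to COL1A2 was the most even, at 0.738, 0.693 and 0.687 in NC and 0.701, 0.652 and 0.688 in Si-LIPG. The groups overlapped (two-sided exact permutation test on log2 ratios, p = 0.5, adjusted p over 5 pairs = 0.833). In the type I molecule alpha-1 chains outnumber alpha-2 chains, which concerns protein and not these read levels. The ratio was below 1 in all 6 libraries with the lengths behind the FPKM, 4803 bases for COL1A1 and 3387 for COL1A2. Counts without division by length were close, at 2841 and 2716 in NC library 1 and 15195 and 16447 in Si-LIPG library 2. Whether those lengths match the transcripts was not tested. COL4A1 to COL4A2 was 2.57, 2.72 and 3.23 in NC and 2.62, 2.91 and 2.94 in Si-LIPG (exact permutation p = 1). COL5A2 to COL11A1 was 4.34, 4.70 and 4.13 against 4.24, 3.79 and 3.47 (exact permutation p = 0.2, adjusted p = 0.5). COL8A1 to COL8A2 was 0.973, 2.91 and 2.16 against 1.75, 2.90 and 1.84 (exact permutation p = 0.9, adjusted p = 1), the widest spread of the 5 pairs.

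Of the 5 pairs, COL6A3 to COL6A2 was the one whose groups did not overlap. Ratios with the row described as collagen alpha-1(VI) chain are not given here. The COL6A3 to COL6A2 ratio was 0.616, 0.589 and 0.731 from NC 1 to NC 3 and 0.756, 0.841 and 0.936 from Si-LIPG 1 to Si-LIPG 3. The means were 0.645 ± 0.0753 and 0.844 ± 0.0901 (SD, n = 3), a log2 difference of 0.39 (exact permutation p = 0.1, the smallest that 3 libraries against 3 allow; adjusted p = 0.5). When 1 library was left out, the difference stayed between 0.31 and 0.48.

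**Figure D3:**
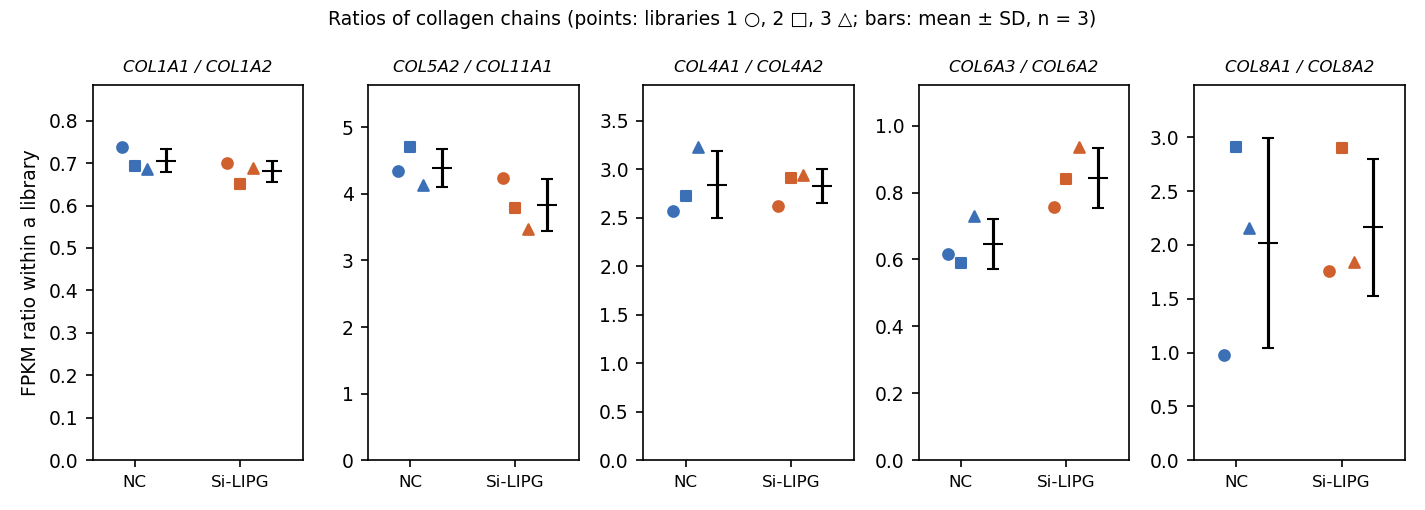
Ratio of FPKM of partner collagen chains within each library for 5 pairs, by group, with the marker shape giving the replicate number and black bars the mean ± SD (n = 3); each panel has its own linear axis from 0. The COL6A3 to COL6A2 ratio is higher in the 3 Si-LIPG libraries (0.756 to 0.936) than in the 3 NC libraries (0.589 to 0.731), and the other pairs overlap.

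Genes that modify, export, process, degrade or bind collagen were read from lists of 63 genes, of which 58 have a row under their name and 43 were tested. Under TMM 7 of the 43 (16.3%) were higher at the criterion beside 7.83% of all tested genes and 0 were lower beside 12.9%. At an adjusted p under 0.05 there were 2 of the 43, both among the 7, beside 6.51% of all tested genes (edgeR). Of the 43, 37 had a log2 fold change above 0, but the median of all tested genes was above 0 as well. The share of all tested genes above 0 is not given here. Their median was 0.41 under TMM, 0.97 with library sizes alone and 1.80 with all reads, beside 0.16, 0.74 and 1.58 for all tested genes. The 7 were 2 without Si-LIPG library 2 and 3 without Si-LIPG library 3. DESeq2 gave 4, without P3H3, PCOLCE2 and CTSK.

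Of the 18 genes for chain modification and folding, 16 were tested and 2 met the criterion. PLOD2, the lysyl hydroxylase whose products set the type of collagen crosslink, had a TMM-normalized CPM of 90.8, 121 and 150 in NC and 242, 475 and 345 in Si-LIPG. Every Si-LIPG library lay above every NC library, and PLOD2 rose by 1.54 ± 0.35 on the log2 scale (SE; edgeR, adjusted p = 0.0395). P3H3, of the prolyl 3-hydroxylase family, rose by 1.37 ± 0.63 at the unadjusted criterion (SE; edgeR, adjusted p = 0.235). This call was lost in 5 of the 6 fits that left out 1 library, where the value ran from 1.01 (without NC library 2) to 2.46 (without NC library 3), and with DESeq2 or its size factors. P4HB, the beta subunit of the prolyl 4-hydroxylase and the most abundant gene of the list, had 0.41 ± 0.31 (SE; edgeR, adjusted p = 0.508).

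Procollagen leaves the endoplasmic reticulum in COPII vesicles, and 6 of the 8 export genes were tested. SEC31A, of the outer coat, had a TMM-normalized CPM of 38.9, 63.0 and 75.7 in NC and 131, 151 and 146 in Si-LIPG. The groups were well apart, and SEC31A rose by 1.24 ± 0.35 on the log2 scale (SE; edgeR, adjusted p = 0.0491). SEC23A, of the inner coat and the most abundant of the list, rose by 0.93 ± 0.34 at the unadjusted criterion (SE; edgeR, adjusted p = 0.124), a call lost without Si-LIPG library 2 or 3. COPII serves secretory cargo in general and is not particular to collagen. The adjusted calls of PLOD2 and SEC31A were both lost without NC library 1, NC library 2, Si-LIPG library 2 or Si-LIPG library 3 in turn (adjusted p between 0.0642 and 0.255, edgeR), and that of SEC31A also without Si-LIPG library 1 (0.0780).

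Outside the cell, 10 of the 13 genes for processing and crosslinking were tested and 1 met the criterion. PCOLCE2, which enhances removal of the procollagen C-propeptide, had a mean TMM-normalized CPM of 90.3 ± 49.8 in NC and 164 ± 40.3 in Si-LIPG (SD, n = 3), with overlap between the groups and a log2 fold change of 0.85 ± 0.39 (SE; edgeR, adjusted p = 0.237). The call was lost in 4 of the 6 fits that left out 1 library. LOXL2, a lysyl oxidase homologue and the most abundant of the list, had 0.0091 ± 0.33 (SE; edgeR, adjusted p = 0.991).

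Of the 13 degradation genes, the classical secreted collagenases MMP1, MMP8 and MMP13 and the gelatinase MMP9 were at 0 in all 6 libraries, so they were not detected in these counts. The 6 tested had log2 fold changes from 0.13 to 0.89. The lysosomal proteases CTSK, which cleaves helical collagen, and CTSB met the criterion, with 60.1 ± 23.1 against 107 ± 20.4 and 116 ± 37.2 against 216 ± 25.7 TMM-normalized CPM (SD, n = 3), without overlap. Their adjusted p values were 0.239 and 0.122 (edgeR), and the call was lost in 5 of the 6 fits that left out 1 library for CTSK and in 3 for CTSB. MMP2, a gelatinase and the most abundant of the list, had 0.41 ± 0.30 (SE; edgeR, adjusted p = 0.484). None of the 5 collagen receptor genes tested (of 11 listed) met the criterion in the edgeR test, and ITGB1, the shared beta chain of the collagen-binding integrins, had 0.30 ± 0.33 (SE; edgeR, adjusted p = 0.677).

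**Figure D4:**
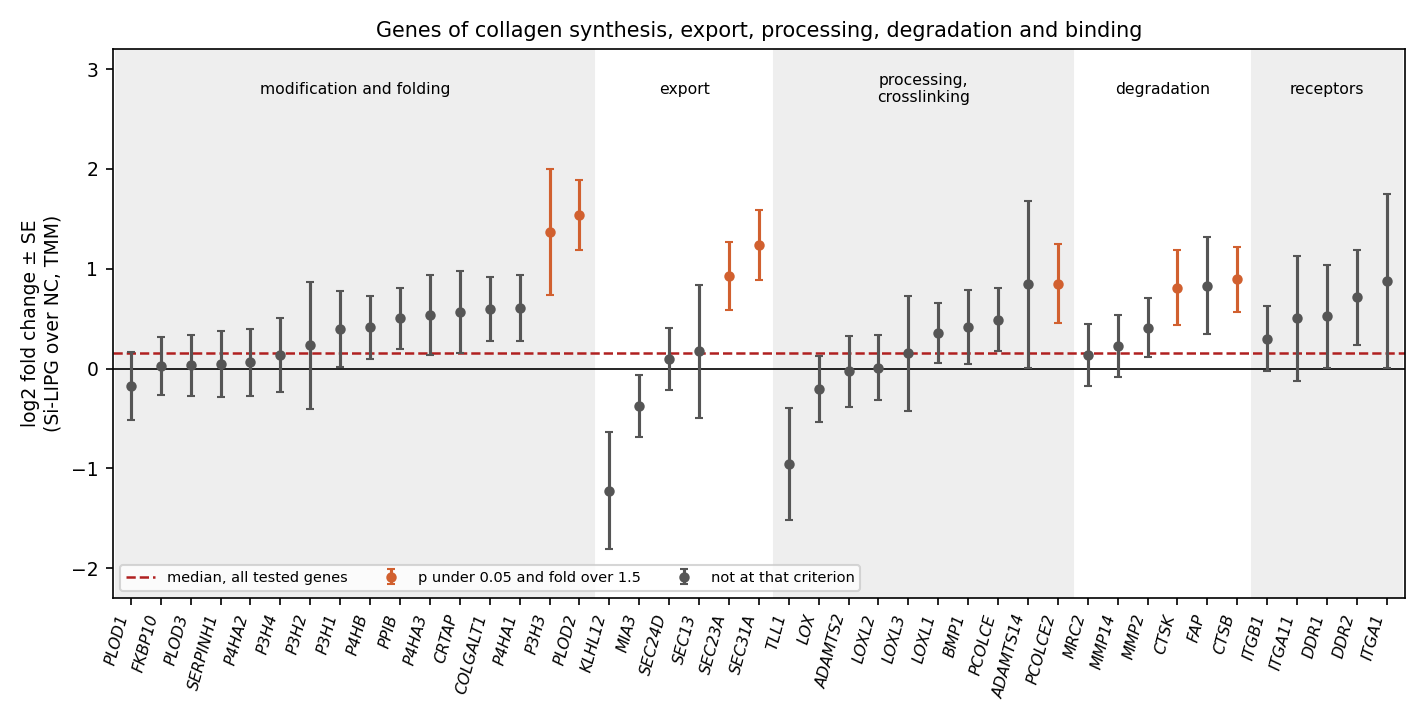
Log2 fold change from NC to Si-LIPG under TMM, with its SE (bars, edgeR, 3 libraries per group) for the 43 tested genes of collagen modification, export, processing, degradation and binding, ordered within each list (shaded bands). Orange points are the 7 genes at the criterion (fold change over 1.5, unadjusted p under 0.05), and the dashed line is the median of all tested genes (0.16).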

How the data were processed

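RNA-seq was made from poly(A) RNA of 3 NC and 3 Si-LIPG samples with dUTP marking of the second cDNA strand. The submitters' processing notes name fastp, HISAT2, SAMtools and HTSeq without versions or settings, and the genome build and the strand setting of counting are not given in the sources used here. The authors deposited raw counts per library for 27271 genes, with 5 rows for reads on no gene (in all 97.1% to 99.0% of reads), which entered neither library sizes nor tests. The authors deposited FPKM values in 1 table, and all 65889 values above 0 matched counts divided by length and counted reads (tolerance 0.01 bases). Samples were grouped by their titles.

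Counts were tested in R 4.3.3 with edgeR 4.0.16 (filterByExpr by group, TMM, quasi-likelihood test, no covariates, Benjamini-Hochberg over 6574 genes). Between 524776 and 1051230 reads per library were counted on genes, and the common biological coefficient of variation was 40.5%. The rule for named genes was every tested collagen gene, untested ones with at least 10 counts, pathway genes at the criterion and, per list, the most abundant gene. Alternatives were DESeq2 1.42.0 and its size factors, library sizes alone, all reads in the files, no filter, at least 10 counts in every sample, a replicate block, limma 3.58.1 on log2(FPKM + 1) or log2(FPKM + 0.1), a fold change over 2 and leaving out each library. Leaving out libraries under the scalings without TMM, and the 5 chain ratios, were added after seeing the data. The members and gene lists were chosen with earlier results of these data known. The model was tested on simulated data with known fold changes. Replicate libraries differed by more than sampling noise (chi-square over its degrees of freedom, 4.21 to 12.5). Neighbouring genes came from RefSeq (ARS1.2), in which all 27 members were found once. No sequence was used here. Of 45 collagen symbols listed, the 18 without a row of that name were not analysed here, nor were MIA2, TRAPPC2, PRSS2, GP6 and LAIR1. Part of one marker list is not reported here. Python 3.11.15, pandas 2.3.3, scipy 1.17.1 and matplotlib 3.10.9 were used.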

Additional observations from a re-analysis of the deposited data

How the results depend on the processing

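Of 237 single-gene values of the tested collagen genes under the alternatives, 163 kept their direction and their side of the threshold, 41 passed it newly, 5 no longer passed it and 28 changed sign. Collagen genes at the criterion were 1 in the main comparison, 9 with library sizes alone, 14 with all reads, 2 with no filter, 2 with at least 10 counts in every sample (where COL10A1 was not tested), 8 with limma on either pseudocount, and 0 to 2 when 1 library was left out; at an adjusted p under 0.05 they were 0, and 11 with all reads, 1 with no filter and 0 to 1 when 1 library was left out. Pathway genes at the criterion were 7, and 22 (library sizes alone), 32 (all reads), 4 (DESeq2), 13 (10 counts), 20 and 19 (limma, pseudocounts 1 and 0.1) and 2 to 8 (1 library left out); at an adjusted p they were 2, and 1 (DESeq2 size factors), 14 (all reads), 6 (10 counts), 0 (limma, both) and 0 to 2 (1 library left out). All tested genes at the criterion were 1361, and 1983 (library sizes alone), 3032 (all reads), 1693 (DESeq2), 2044 (no filter) and 1066 (10 counts). With limma they were 1912 and 1671, and with 1 library left out 871 to 1692. At an adjusted p they were 428, and 123 (library sizes alone), 750 (all reads), 595 (DESeq2), 623 (no filter) and 714 (10 counts). They were 0 with limma (both) and 0 to 648 with 1 library left out. How many genes, and how many pathway genes, the filter of 10 counts kept is not given here. The median log2 fold change of the 16 collagen genes was 0.30. It was 0.83 with library sizes alone, 1.63 with all reads, and 0.86 and 0.91 with limma at pseudocounts 1 and 0.1. With at least 10 counts in every sample it was 0.57, beside 0.14 for all genes so kept. With 1 library left out it ran from 0.075 to 0.37. The log2 ratio of summed collagen FPKM was 0.74, and 0.48 to 0.91 with 1 library left out. For CPM over all reads this ratio was 1.58.

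The sign changed for 5 genes near 0. COL5A2 (-0.048) was 0.51, 1.32, 0.037, 0.21, 0.53 and 0.53 with library sizes alone, all reads, no filter, 10 counts and limma at both pseudocounts; COL4A1 (-0.097) was 0.45, 1.24, 0.16, 0.47 and 0.47 in the same order without the unfiltered fit; COL4A2 (-0.081) was 0.47, 1.27, 0.010, 0.17, 0.47 and 0.48; COL6A2 (0.040) was -0.0028 with DESeq2 size factors. With 1 library left out, the values ran from -0.23 to 0.047 for COL5A2, from -0.047 to 0.19 for COL6A2, from -0.33 to 0.063 for COL4A1, from -0.38 to 0.11 for COL4A2 and from -0.41 to 0.79 for COL5A3. The cause was not tested. Of the 27 members, 11 had too few counts to be tested.

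Groups share replicate numbers. The correlations of deviations from the group means were 0.21, 0.064 and 0.11 for same-numbered libraries. NC libraries 1 and 3 correlated best with their own number, and NC library 2 did not. So few correlations cannot decide whether same-numbered libraries were paired, which is not given in the sources used here. A replicate block gave 2 collagen genes at the criterion (COL10A1 and COL15A1), 2 at an adjusted p (COL10A1 and COL6A3), 9 and 5 pathway genes, and 1550 and 925 of all genes.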
